A study of Mus musculus with 12 samples.

Results

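The 9 genes described here encode the histone variant H2A.Z and the proteins that load it into chromatin or remove it: H2afz and H2afv for the variant, Anp32e, the SRCAP complex genes Srcap, Vps72, Znhit1 and Actr6, and the INO80 complex genes Ino80 and Actr5. They were chosen by name, and every H2A.Z peak assigned to one of them was taken, at any distance. This gave 24 of 59069 peaks in 4 lists: 9 of the 24655 SS peaks, 8 of the 23170 SC peaks, 3 of the 6417 CS peaks and 4 of the 4827 CC peaks. The lists come from chromatin immunoprecipitation and sequencing of H2A.Z in mouse nucleus accumbens, the ventral part of the striatum. The 12 samples fall into 4 conditions of 3: SS had saline at both stages, SC (called acute in the labels) had cocaine after saline, CS (withdrawal) had saline after cocaine, and CC (challenge) had cocaine at both. The labels give no strain, genotype, age, dose or interval. Whole tissue was used, so H2A.Z in fewer cells and less H2A.Z per cell cannot be told apart.

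Each condition has 1 deposited list for its 3 samples and no value per sample. No value below therefore has a replicate error, no difference between conditions was tested, and intervals cover the counting of genes or peaks only. The lists differ in length and also in kind: promoter peaks had a median width of 960 bp in SS, 895 bp in SC, 111 bp in CS and 108 bp in CC. The highest q-value listed was 0.000544, 0.000572, 0.051 and 0.0625 in the same order. Of 10 genes that mark striatal projection neurons, 9 had a promoter peak in SS, 7 in SC and 0 in either CS or CC. For the 9 marker genes of SS, the exact interval around 0 was 0 to 33.6% in each of the last 2 lists. It includes the shares over all SS promoter genes, 28.8% for CS and 22.7% for CC. The absence of marker genes therefore cannot be called particular to them. An H2A.Z peak does not measure expression, so these counts are no check of the tissue. Sequencing depth was not analysed here.

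H2A.Z replaces the ordinary histone H2A in nucleosomes next to gene starts. In mammals it comes from a pair of genes, H2afz (named H2az1 in RefSeq, protein H2A.Z.1) and H2afv (H2az2, protein H2A.Z.2), whose products are nearly the same protein. The SRCAP complex exchanges H2A for H2A.Z with its ATPase SRCAP, and its subunit VPS72 (YL1) binds the variant. ZNHIT1 and the actin-related protein ACTR6 are further subunits. ANP32E is a chaperone that takes H2A.Z out of nucleosomes. INO80 is a remodelling ATPase with a role in H2A.Z removal known from budding yeast, and ACTR5 is an actin-related subunit of its complex. The genes of this machinery can thus carry H2A.Z at their own promoters, and their peaks were compared across the conditions. A promoter peak is a peak whose middle lies within 1000 bp of the transcription start site (TSS) of its assigned transcript.

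Promoter sequence from RefSeq (GRCm38.p6, the assembly called mm10) runs from 250 bases before to 50 after the start, and it was found for 7 of the 9 genes. Vps72 and Actr5 are named without sequence. The promoters of Ino80 and Srcap are shown because a CC peak lies on them. Capitals mark the bases inside that CC peak, whose edges may be off by 1 base because the lists do not say whether they count from 0 or 1.
Ino80, chr2:119477638-119477937, minus strand: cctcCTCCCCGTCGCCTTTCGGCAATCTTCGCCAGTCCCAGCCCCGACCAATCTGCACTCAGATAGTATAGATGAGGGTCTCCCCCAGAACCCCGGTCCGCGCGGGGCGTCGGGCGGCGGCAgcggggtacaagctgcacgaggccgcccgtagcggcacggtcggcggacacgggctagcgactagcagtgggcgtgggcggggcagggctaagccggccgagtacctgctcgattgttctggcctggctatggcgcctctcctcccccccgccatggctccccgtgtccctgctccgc
Srcap, chr7:127511733-127512032, plus strand: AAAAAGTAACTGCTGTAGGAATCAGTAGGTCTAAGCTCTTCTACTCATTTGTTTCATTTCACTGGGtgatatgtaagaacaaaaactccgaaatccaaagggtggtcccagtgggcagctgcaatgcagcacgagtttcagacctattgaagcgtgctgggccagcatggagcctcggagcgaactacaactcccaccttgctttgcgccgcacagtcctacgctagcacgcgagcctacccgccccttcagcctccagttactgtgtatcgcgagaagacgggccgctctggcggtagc
In Ino80 the CC peak covered bases 5 to 122 of the 300, and in Srcap bases 1 to 66.

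The promoters of both variant genes and of Anp32e are shown because the peaks of H2afv and Anp32e were among the stronger member peaks in SS and that of H2afz was the weakest. Capitals mark each CCAAT box, on either strand.
H2afz, chr3:137864237-137864536, plus strand: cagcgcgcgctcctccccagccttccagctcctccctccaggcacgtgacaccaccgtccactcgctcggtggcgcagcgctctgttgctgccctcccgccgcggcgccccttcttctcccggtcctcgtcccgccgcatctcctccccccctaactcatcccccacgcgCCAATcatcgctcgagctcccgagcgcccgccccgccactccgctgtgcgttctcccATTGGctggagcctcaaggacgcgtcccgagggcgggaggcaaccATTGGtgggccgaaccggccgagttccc
H2afv, chr11:6444394-6444693, minus strand: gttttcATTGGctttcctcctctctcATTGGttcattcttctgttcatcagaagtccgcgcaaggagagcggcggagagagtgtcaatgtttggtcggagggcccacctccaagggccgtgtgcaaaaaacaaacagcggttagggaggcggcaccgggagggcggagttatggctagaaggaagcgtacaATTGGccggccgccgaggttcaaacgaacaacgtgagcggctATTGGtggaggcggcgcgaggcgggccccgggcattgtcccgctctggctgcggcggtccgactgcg
Anp32e, chr3:95929007-95929306, plus strand: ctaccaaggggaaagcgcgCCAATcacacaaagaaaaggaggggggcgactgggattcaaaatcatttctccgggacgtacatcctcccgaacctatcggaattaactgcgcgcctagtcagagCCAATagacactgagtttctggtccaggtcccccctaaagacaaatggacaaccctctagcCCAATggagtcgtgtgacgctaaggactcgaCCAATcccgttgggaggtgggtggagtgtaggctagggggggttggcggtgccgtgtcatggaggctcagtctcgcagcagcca
The H2afv window lay wholly inside its SS and SC peaks, with 300 of 300 bases covered in each. The H2afz and Anp32e windows had 0 bases covered in any list. Their SS peaks began 91 bp and 199 bp downstream of the RefSeq start.

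Most of the sequences had a CpG ratio above the median of all promoters and a CCAAT box, and neither was common to all. The ratio of observed to expected CpG was 0.985 in H2afz, 1.01 in H2afv, 0.676 in Anp32e, 0.752 in Srcap and 0.876 in Ino80, against a median of 0.567 over 21262 RefSeq promoters of protein-coding genes. Of 9 start sites of 7 member genes, 8 lay above that median, and the lowest, at Znhit1, had 0.524. The other Znhit1 start site had 0.848. The windows of the Actr6 start sites largely overlap, so they are not separate sequences. H2afz, with the weakest SS peak of the 9 genes, had about the same ratio as H2afv, with one of the stronger peaks. The H2afz window lay outside its SS peak, so its ratio does not describe the sequence under that peak. A total of 6 motifs were searched on both strands, and none of them contains another. Members were counted as genes with a match at any of their start sites, whereas the shares given beside them are of single promoters. The CCAAT box (CCAAT) was found in 5 of the 7 genes, namely H2afz, H2afv, Anp32e, Actr6 and Ino80, and in 38.2% of all RefSeq promoters. The second Actr6 start site had no CCAAT box. H2afv and Anp32e had 4 matches each and H2afz had 3. The GC box (GGGCGG) was found in H2afz, H2afv, Srcap and Ino80, and in 46.2% of all promoters, while the E-box (CACGTG) was found in H2afz and Znhit1 and in 7.84%. The TATA box (TATAAA, 12.6% of all promoters), the cAMP response element (TGACGTCA, 2.23%) and the core of the NRF1 element (GCGCATGC, 3.51%) matched in 0 of the 7 genes.

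H2A.Z occupied the promoters of its own machinery in the saline condition. All 9 genes had 1 peak each in SS, every one with its middle within 432 bp of the TSS of its assigned transcript. Counted in another way, by any peak with its middle within 1000 bp of a RefSeq start, 7 of the 7 members with such a start had one in SS, against 59.4% of 17491 RefSeq protein-coding genes. Fold enrichment, the authors' ratio of signal over background, ran from 3.06 at H2afz to 13.2 at Actr5. Of the 9 peaks, 7 were above the median fold of SS promoter peaks (5.3), which 50% of promoter peaks exceed by definition. After a first cocaine exposure the picture was similar: the SC list held a promoter peak by name at 8 of 9 genes, and 88.2% of all SS promoter genes had one in SC. By RefSeq starts, a peak was found in SC at 7 of 7 members and 57.0% of the RefSeq genes, in CS at 2 and 20.4%, and in CC at 4 and 15.8%. In CS peaks were listed at 2 of the 9 genes, Anp32e and Srcap (22.2%, exact interval 2.81 to 60%), against 28.8% of all SS promoter genes. In CC they were listed at 4, H2afv, Srcap, Actr6 and Ino80 (44.4%, 13.7 to 78.8%), against 22.7%. Both intervals include the share over all genes. Counted as overlaps of the SS peaks, whatever the assigned gene, the same 2 and 4 members remained, against 27.1% and 21.3% of SS promoter peaks.

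**Figure D1:**
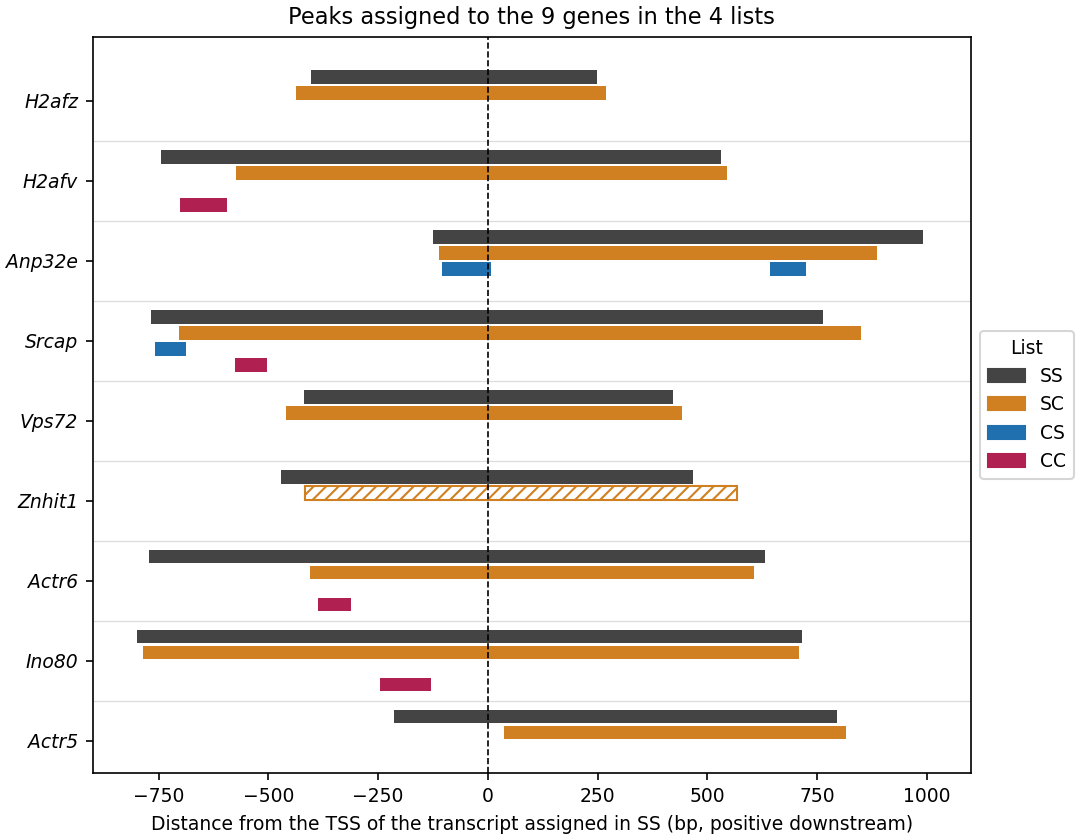
Peaks at the 9 genes, drawn as bars from their 5′ to their 3′ edge, in bp from the TSS of the transcript assigned in SS (dashed line) and coloured by list. The hatched bar is the SC peak over Znhit1 that is assigned to Plod3. SS and SC peaks are 651 to 1554 bp wide, and the 7 CS and CC peaks are 70 to 117 bp wide and lie inside the SS peaks.

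The pair of variant genes differed from each other. The SS peak of H2afz had a fold enrichment of 3.06 and was 651 bp wide (chromosome 3, 137864578 to 137865229). Only 5.23% of SS promoter peaks had a lower fold. Its SC peak had a fold of 3.73, with 16.8% of SC promoter peaks lower, and covered 100% of the SS peak. H2afz was therefore at the low end of both lists, although the peak was a clear one by the authors' q-value (5.45e-23 in SS and 1.61e-56 in SC). No peak overlapped it in CS or CC, and the nearest peak of any gene was 52.8 kb away in CS and 577 kb away in CC.

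H2afv carried a peak of 1274 bp in SS (chromosome 11, 6443913 to 6445187) with a fold of 10.3, higher than 89.5% of SS promoter peaks. In SC its fold was 14, higher than 95% of SC promoter peaks. The nearest CS peak was 54.9 kb away. CC had a peak of 107 bp at H2afv (6445037 to 6445144; fold 3.97, q-value 0.028), with its middle 647 bp upstream of the TSS. This CC peak lay within the 5′ end of the SS peak and ended 20 bp short of the SC peak, so it fell on sequence that the SC peak at H2afv left out. It was among the weakest of its list: 5.25% of CC promoter peaks had a lower fold and 1.7% a higher q-value.

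Anp32e, the removal chaperone, was the member with peaks in SS, SC and CS and none in CC. Its SS peak was 1116 bp wide (chromosome 3, 95929456 to 95930572) with a fold of 10.9, higher than 93.3% of SS promoter peaks. In SC the fold was 14.3, higher than 96.3% of SC promoter peaks, and the q-value was listed at 0. The middle of the SS peak lay 432 bp downstream of the TSS of its assigned transcript, farther than at any other member. CS had a pair of narrow peaks there, both inside the SS and SC peaks and 635 bp apart. The first was 112 bp wide (95929478 to 95929590; fold 3.85, q-value 0.0154) and spanned the TSS assigned in SS. The second was 82 bp wide (95930225 to 95930307; fold 4.55, q-value 0.000896) and began 643 bp downstream of that TSS, upstream of the start of a shorter transcript. Together they covered 17.4% of the SS peak, and 15.8% of CS promoter genes had 2 or more promoter peaks. In CC the nearest peak was 20.8 kb away.

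Srcap, the exchange ATPase, was the member listed under all 4 conditions, as 13.2% of the genes with promoter peaks in SS and SC were. Its SS peak was the widest of the 9 (1530 bp, chromosome 7, 127511534 to 127513064), wider than 95.6% of SS promoter peaks, with a fold of 7.72. In SC it was 1554 bp wide with a fold of 9.74. Within their lists these peaks ranked nearly alike, above 71.2% of SS and 70.3% of SC promoter peaks. The CS peak of Srcap was 70 bp wide (127511544 to 127511614; fold 4.35, q-value 0.00422) and the CC peak 74 bp (127511724 to 127511798; fold 5.44, q-value 6.52e-05). These did not overlap: 110 bp separated them, and both lay at the 5′ side of the SS peak. The CC peak ranked above 79.5% of CC promoter peaks, the highest rank of any member in CS or CC, and the CS peak above 24.7% of CS promoter peaks.

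The other SRCAP subunits had weaker peaks. Vps72, which binds the variant, had a fold of 4.53 in SS (chromosome 3, 95110604 to 95111444) and 4.23 in SC, above 34.7% and 24.7% of promoter peaks. It had no overlapping peak in CS or CC, where the nearest peaks were 22.2 kb and 136 kb away. Actr6 had a fold of 5.37 in SS (chromosome 10, 89731663 to 89733067) and 5.61 in SC, close to the promoter medians of 5.3 and 6.03. Its SS peak was 1404 bp wide and its SC peak 1012 bp, the latter beginning 367 bp further downstream. CC had a peak of 75 bp at Actr6 (89732607 to 89732682; fold 5.08, q-value 0.000382), 349 bp upstream of the TSS, while the nearest CS peak was 12.1 kb from the gene's SS peak.

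Znhit1 illustrates how the naming of peaks enters these counts. Its SS peak had a fold of 6.74 (chromosome 5, 136987075 to 136988014), with the middle 1 bp from the TSS of its assigned transcript. By name it was missing from SC. An SC peak with a fold of 7.4 nevertheless covered 94.2% of the SS peak (136986976 to 136987960), and the authors assigned it to Plod3, with its middle 8 bp from the Plod3 start. Counted by overlap, SC therefore had a peak at 9 of the 9 SS member peaks, against 89% of all SS promoter peaks. Neither CS nor CC had a peak overlapping the SS peak of Znhit1, whatever the name, and the nearest lay 67.6 kb and 164 kb away.

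The INO80 pair went separate ways. Actr5 had the strongest member peak in SS, with a fold of 13.2 (chromosome 2, 158624674 to 158625683) above 99.4% of SS promoter peaks. In SC its fold was 15.2, above 98.3%. It had no overlapping peak in CS or CC, where the nearest peaks were 263 kb and 169 kb away. Ino80, the ATPase, had a fold of 10.8 in SS (chromosome 2, 119476972 to 119478486) and 11.8 in SC, in peaks of 1514 bp and 1493 bp that shared nearly the same edges. The nearest CS peak lay 68.8 kb from the SS peak of Ino80. CC had a peak of 117 bp on it (119477816 to 119477933; fold 4.71, q-value 0.00188), 187 bp upstream of the TSS and inside the promoter sequence shown above.

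**Figure D2:**
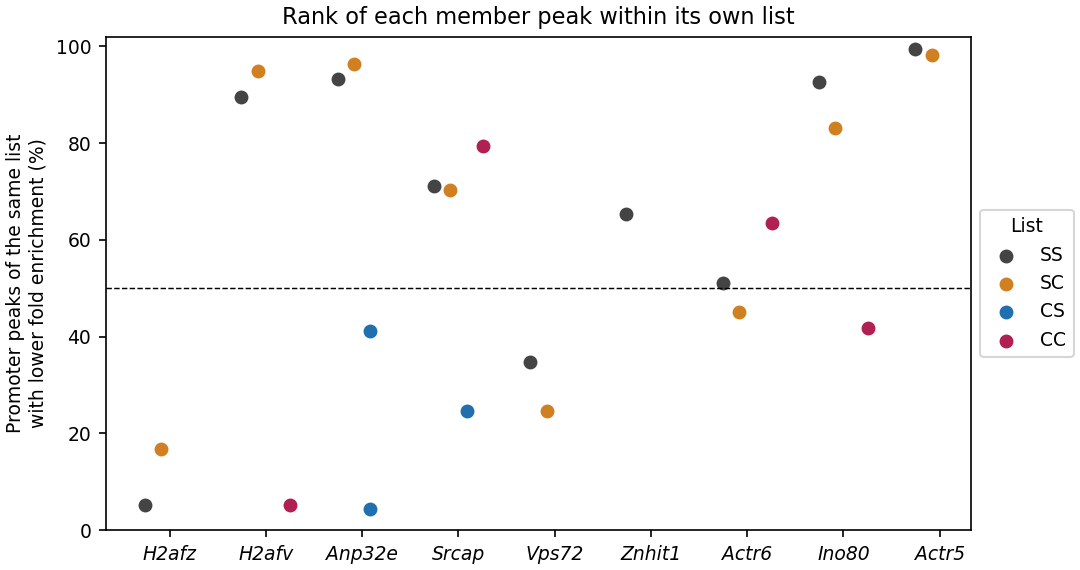
Rank of each member peak within its own list, as the share of promoter peaks of that list with a lower fold enrichment. Each point is a peak, coloured by list, and the dashed line marks the middle of a list. H2afz and Vps72 lie below the middle in SS and SC, while H2afv, Anp32e, Ino80 and Actr5 lie above 80% in both.

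The SC peaks retraced the SS peaks. They covered 72.1 to 100% of each SS member peak, least at Actr6 (72.1%) and Actr5 (75.1%). The 5′ edge of the SC peak lay 367 bp inside the SS peak at Actr6, 251 bp inside at Actr5 and 170 bp inside at H2afv. At Anp32e, Ino80 and Srcap it moved by 14, 14 and 63 bp. Middles of the SS peaks lay within 100 bp of the TSS of the assigned transcript at 6 of 9 members, against 49.7% of all SS promoter genes. In SC they did at 6 of 8, against 49.4%. RefSeq starts gave other distances (positive downstream): -42 bp at Ino80, -70 or -120 bp at Actr6 and -107 bp at H2afv in SS. The SS middles of Srcap, H2afz and Anp32e lay at 316, 416 and 757 bp, and that of Znhit1 at 414 or -640 bp.

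The CS and CC peaks covered small pieces of the SS peaks. All 7 lay wholly inside the SS peak of the same gene, covering 17.4% of it at Anp32e and 4.58% at Srcap in CS, and 4.84 to 8.4% at the 4 genes in CC. The share of all CS and CC promoter peaks inside an SS peak was not computed, so this cannot be called particular to the members. Each of the 7 peaks had its middle upstream of the TSS of its own assigned transcript, whereas 48.2% of CS and 43.8% of CC promoter peaks did. The choice of transcript enters here. At Anp32e the CS peaks were assigned to different transcripts, and the middle of the second lay 684 bp downstream of the TSS assigned in SS. Both Anp32e peaks lay downstream of the RefSeq start of the gene (95929257). The count of 7 out of 7 therefore holds for the assigned transcripts only. The strongest peak per gene had its middle within 100 bp of the TSS at 0 of 2 members in CS and 0 of 4 in CC, against 20.3% and 21.2% of all promoter genes. The 3 CS peaks and the 4 CC peaks had no stretch in common, since 0 of the 3 overlapped any CC peak. The share of all CS promoter peaks that overlap a CC peak was not computed, so this count only describes the members. Above the median fold of their list stood 0 of the 3 CS peaks and 2 of the 4 CC peaks, Srcap and Actr6, against 43.9% and 49.8% of promoter peaks. Of the 9 genes, 5 had a peak in CS or CC and 1, Srcap, in both. Over all genes with promoter peaks in SS and SC, 42.2% had one in CS or CC.

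The members with a peak in CS or CC were those with the widest SS peaks. Srcap (1530 bp), Ino80 (1514 bp), Actr6 (1404 bp), H2afv (1274 bp) and Anp32e (1116 bp) had one. Actr5 (1009 bp), Znhit1 (939 bp), Vps72 (840 bp) and H2afz (651 bp) had none. The 2 sets did not overlap in width, but they did in fold enrichment, where Actr5 at 13.2 was the highest of the 9 and Actr6 at 5.37 was below Znhit1 at 6.74. A relation with width held over all 15369 SS promoter peaks: of 5 equal groups from narrow to wide, 11.8%, 21.7%, 37.8%, 53.3% and 59.9% overlapped a CS or CC peak, and 36.9% did so in all. Sorted by fold instead, the shares were 12.3%, 32.5%, 57.1%, 41% and 41.6%, highest in the third group. The area under the ROC curve, the chance that an overlapped peak exceeds one that is not, was 0.727 for width and 0.619 for fold. A wide peak offers more sequence to overlap. The number of CS and CC peaks per 100 kb of SS peak sequence was 31.8 in the narrowest group, 73.2 in the fourth and 71.7 in the widest. What underlies the relation with width was not tested. The split by width among the 9 members was noticed after their values were seen and is a description.

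**Figure D3:**
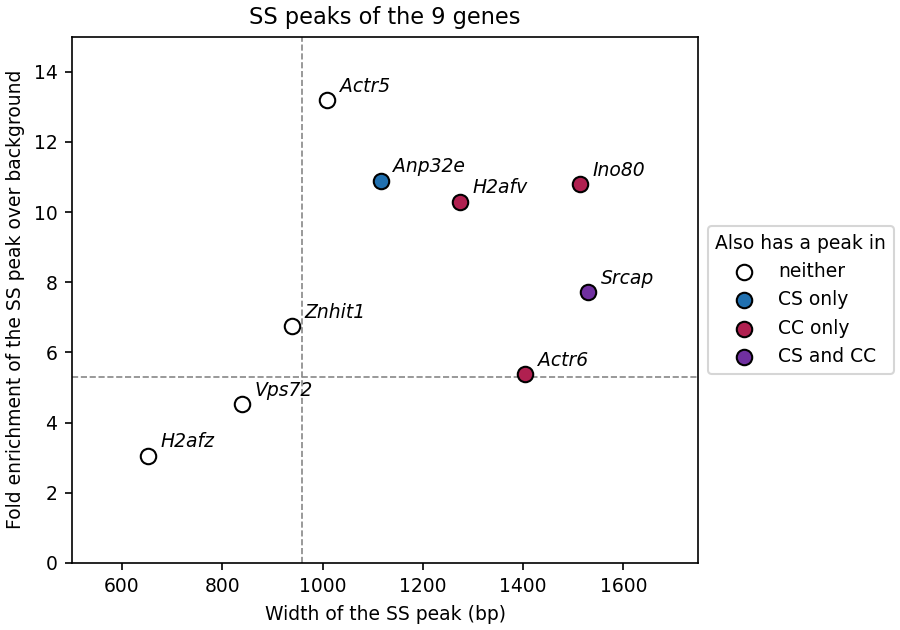
SS peaks of the 9 genes by width and fold enrichment, coloured by whether the gene also has a peak in CS, in CC, in both or in neither; dashed lines are the medians of SS promoter peaks (960 bp and 5.3). The 4 open points, with a peak in neither list, are the 4 narrowest.

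**Figure D4:**
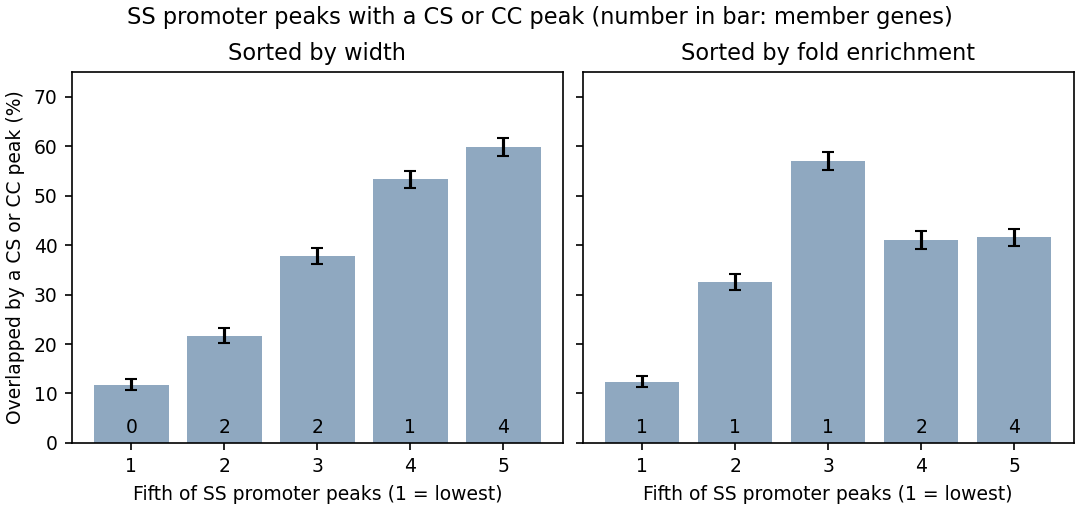
Share of SS promoter peaks overlapped by a CS or CC peak in 5 equal groups, sorted by width (left) or by fold enrichment (right), with exact 95% intervals; the number in each bar counts member genes. The share goes from 11.8% to 59.9% with width and peaks at 57.1% in the third group by fold.

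The SS and SC lists held fewer members when shortened, while the count in CS stayed the same. When every list was shortened to its 4827 strongest peaks, the length of CC, SS and SC each kept 5 members with a promoter peak, beside 2 in CS and 4 in CC. The 5 were the same in SS and SC: Actr5, Anp32e, H2afv, Ino80 and Srcap. RefSeq protein-coding genes with a peak at a start site then made up 20.4% and 20.1% in SS and SC, against 16.2% and 15.8% in CS and CC. When peaks with −log10 q under 5 were left out, 9 members stayed in SS, 8 in SC and 0 in either CS or CC. Over all peaks, 97.7% passed this limit in SS and 97.9% in SC, against 17.8% in CS and 19.6% in CC. The strongest member peak of those 2 lists by q-value, Srcap in CC, has a −log10 q of 4.19.

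Of 23 other genes of the exchange pathway, 17 had a promoter peak in SS and 18 in SC, against 9 in CS and 5 in CC. The 17 SS genes had one by name in SC in 17 cases, in CS in 8 (47.1%, exact interval 23 to 72.2%) and in CC in 5 (29.4%, 10.3 to 56%). Both of these intervals include the shares over all SS promoter genes, 28.8% and 22.7%. Ruvbl2, an ATPase shared by both complexes, is a case where a name is kept and the place is not. Its SS peak (chromosome 7, 45437838 to 45438207) and its SC peak (45433853 to 45434224) lie at different starts.

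Subunits shared with SRCAP had peaks in CS at Dmap1, Ruvbl1 and Yeats4, and in CC at Dmap1 and Actl6a. Among the 10 other INO80 subunits, Ino80c, Nfrkb, Mcrs1 and Tfpt had peaks in CS and Mcrs1 in CC. Mcrs1 ranked highest of these in CS, with a fold of 5.69 above 91.2% of CS promoter peaks. The related chaperone genes Anp32a and Anp32b had promoter peaks in SS (3.91 and 5.53) and SC (6.31 and 5.68) and none in CS or CC. Anp32e was thus the only one of these 3 ANP32 genes with a CS peak, against 28.8% of all SS promoter genes. Among the NAP1 chaperone genes, Nap1l4 had the pattern of Anp32e, with peaks in SS (12.4), SC (13.7) and CS (4.68) and none in CC. Nap1l1 had peaks in SS (9.47) and SC (11.3) alone. Of the macroH2A genes, H2afy had a CC peak (4.96) and H2afy2 both a CS (4.06) and a CC peak (4.27). Dmap1 and Ruvbl1 are among the shared subunits that also belong to the TIP60-p400 complex, another H2A.Z loader, and had SS folds of 5.18 and 4.76. Of the other subunits shared with SRCAP, Actl6a and Ruvbl2 had SS folds of 5.3 and 3.25, and Yeats4 had no SS promoter peak by name.

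Genes most like Anp32e and H2afz were sought among those with promoter peaks in the same lists, by the summed difference of their percentile of fold enrichment in each list. Of 1953 other genes with promoter peaks in SS, SC and CS and none in CC, Suox and Pla2g12a were among the closest to Anp32e, with summed differences of 1.89 and 4.76 percentile points over 3 lists. Of 6183 genes with peaks in SS and SC alone, clone names left out in both counts, Rsph1, Slitrk2 and Atp5g2 lay closest to H2afz, within 0.499 points over 2 lists. The patterns of both genes were thus common ones.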

How the data were processed

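H2A.Z was profiled in 12 samples, and the authors deposited 4 annotated peak lists, 1 per condition, which were the files used. Cutadapt, HISAT, SAMtools, MACS2 and the mm10 build are named in the submitters' processing notes. No source used here gives their versions or settings, the control library, or whether samples were pooled before calling. Per the file headers, each peak has a fold enrichment, the authors' ratio over background, and a q-value. The authors also deposited an assigned gene, a region class and a distance, which on testing equalled the peak middle minus the TSS within 1 bp. Folds were compared between peaks of 1 list only. Starts and ends are printed as deposited. No column held samples outside the series.

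Peaks were selected by gene name and compared by overlap of at least 1 bp in Python 3.11.15 with pandas 2.3.3. Overlap counts were checked against bedtools 2.31.1, and the code was tested on simulated data. Shares carry exact (Clopper-Pearson) 95% intervals. All 9 members and the 23 other pathway genes matched RefSeq genes, H2afz and H2afv through synonyms. The genes, lists and alternatives were chosen with earlier results of these data known. All members are named, and the likeness rule took the 3 closest genes, skipping names that start Gm or end Rik; a gene that this rule names is not reported here. H3 libraries were not analysed here.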

Additional observations from a re-analysis of the deposited data

How the results depend on the processing

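A total of 22 counts were recomputed under other settings, giving 95 values, of which 74 stayed within 1.5 times the count reported and 21 did not. When peaks with −log10 q under 5 were left out, members with a promoter peak, SS members held and SS member peaks overlapped each became 0 in CS and 0 in CC, CC member peaks above the median fold of their list became 0, and the 23 other exchange genes kept 1 promoter gene in CS and 0 in CC. That limit was passed by 97.7% of all SS peaks and 97.9% of all SC peaks, against 17.8% of CS peaks and 19.6% of CC peaks. With every list shortened to 4827 peaks, members with a promoter peak became 5 in SS and 5 in SC, SS members held in SC and SS member peaks overlapped in SC became 5 and 5, and other exchange genes became 5 in SS and 5 in SC. Under the same setting, member peaks near the TSS became 2 in SS and 3 in SC, and those above the median fold 4 in SS and 3 in SC; fewer peaks were available. With the promoter peak nearest the TSS, CS had 1 member peak within 100 bp (Anp32e) in place of 0, and with a limit of 200 bp CC had 1 (Ino80) in place of 0. Promoter windows of 500 and 3000 bp, overlap of at least 50% of the shorter peak, holding by overlap and ranking by q-value moved no count by over 1.5 times. Nor did an alternative chosen after seeing the data, a peak of any assigned gene within 1000 bp of a RefSeq start. It could be applied to 7 members, and gave 7 in both SS and SC, 2 in CS and 4 in CC. Leaving out a replicate could not be done, since each list stands for 3 samples. No paired analysis was possible because the lists carry no replicate numbers.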

Other observations

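Fold enrichments repeated far more often in CS and CC than in SS and SC. The 6417 CS peaks took 1343 different values and the 4827 CC peaks 1225, while the 24655 SS peaks took 13347 and the 23170 SC peaks 15898. In CS 89.3% of peaks shared their value with another peak of the list, in CC 87.3%, in SS 59.6% and in SC 44.1%. The member peaks took part in this. Srcap in CS had the most frequent value of that list, 4.35, which 532 peaks share. Ino80 in CC had the most frequent value there, 4.71, shared by 251 peaks, and Actr6 and Srcap in CC had values shared by 246 and 181 peaks. H2afv in CC had a value of its own.

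Gene names hid some promoter peaks of the exchange pathway. Yeats4, Ino80e, Uchl5 and Yy1 had no SS promoter peak by name, and each had a peak of some assigned gene within 1000 bp of a RefSeq start in SS and SC. Uchl5 had such a peak in all 4 lists and was assigned a promoter peak in none.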
